A study of Mus musculus with 18 samples.

Results

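Among the full-length mouse transcripts sequenced here, 3211 of 114425 isoforms (2.81%) carry the mark IEJ in the authors' deposited isoform table, and these 3211 are the isoforms described below. They were taken as every row in which that mark is set, with no use of read counts. They belong to 1892 of 17714 gene labels (10.7%) and hold 89643 of 10234812 reads (0.876%). The abbreviation is not spelled out in the sources used here. In the literature on neuronal transcripts it stands for intra-exonic junction, a join between points inside exons and away from the annotated splice sites.

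RNA came from primary mouse cultures of astrocytes, microglia and neurons, and from the small extracellular vesicles (sEVs) that each culture released. Each of the 6 groups (astrocyte cells, astrocyte sEVs, microglia cells, microglia sEVs, neuron cells, neuron sEVs) had 3 libraries, giving 18 in all, read as long cDNA on the PacBio platform. The labels name no strain, age, genotype or treatment and do not say whether the 3 replicates were separate cultures, so the p-values below measure the spread between these libraries, which may be technical. All cell libraries were sequenced in a first pool and all sEV libraries in another, so fraction and pool cannot be told apart.

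Cells release sEVs as membrane-bound particles that carry protein and RNA, and long-read sequencing can show whether an mRNA inside them is read from end to end and which exons it joins. An ordinary splice junction joins the last base of an exon to the first base of the next. A junction that starts or ends inside an exon removes part of the coding sequence (CDS) or of an untranslated region (UTR) and leaves the rest of the transcript in place.

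Library totals ran from 434298 to 683381 reads, and the smallest value above 0 in the table is 2, so a 0 can hide a single read. Summed over the marker lists, microglia libraries held 12086 to 16152 RPM (reads on a feature per 1000000 reads of the library) of microglia markers in cells and 4582 to 8630 in sEVs, against at most 45.1 RPM in any library of the other groups. Neuron markers stood at 5796 to 7225 RPM in neuron cells and 2851 to 3682 RPM in neuron sEVs. Astrocyte markers reached 30390 to 30948 RPM in astrocyte cells and were also present at 3977 to 4555 RPM in neuron cells and 2749 to 3809 RPM in neuron sEVs, where they were as high as the neuron markers. Their part in the neuron results was not tested. Oligodendrocyte lineage markers stood at 4214 to 9131 RPM in astrocyte cells. In these bulk samples, fewer cells of a type and less RNA per cell cannot be told apart.

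All 3211 isoforms are in the category novel_not_in_catalog, the class of isoforms with a splice site absent from the annotation, of which they make up 12.1% of 26603. Each carries at least 1 of the labels UTR_UTR, CDS_CDS or CDS_UTR, and 0 isoforms without the mark carry any of these. By their names these labels place the junction's ends in untranslated or coding sequence. UTR_UTR was given to 1673 isoforms (52.1%), CDS_CDS to 953 (29.7%), CDS_UTR to 560 (17.4%) and more than 1 of them to 25. Most members are rare: 1544 (48.1%) hold exactly 2 reads in all libraries together, the median is 3, and 110 hold 50 or more.

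No file used here gives the sequence of a junction. The promoters of 3 carriers whose IEJ reads lay in microglia libraries are shown instead, because they hold the same short motif. The motif is TTTC, then any 2 bases, then TTTC again. It was searched on both strands over the 250 bases before the start site, and its overlap with other motifs was not examined. It occurs in 978 of 32851 RefSeq promoters (2.98%). Of the 10 carriers with at least 50 IEJ reads and 95% of them in microglia, which were picked after their values were seen, 8 have a promoter in the RefSeq table and 3 of these hold the motif. The windows below are 30 bases long, read 5′ to 3′ along the gene from RefSeq's GRCm38.p6 table, with the motif in capitals. They lie at chr11:58183742-58183771 (plus strand) for Gm12250, chr19:34583363-34583392 (plus strand) for Ifit3 and chr12:26456553-26456582 (minus strand) for Rsad2.
Gm12250: cctcggtggcTTTCAGTTTCtatgcctaga
Ifit3: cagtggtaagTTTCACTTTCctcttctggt
Rsad2: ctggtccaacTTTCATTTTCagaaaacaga
The match farthest upstream lies 91 bases before the start of Gm12250, 156 before that of Ifit3 and 120 before that of Rsad2. A match describes these letters and is not evidence of a bound factor.

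A single predicted gene, Gm42047, held more IEJ reads than any other carrier, nearly all of them in sEVs. It carries 348 IEJ isoforms, 76.0% of its 458 isoforms, and 62620 IEJ reads, which are 69.9% of all IEJ reads. That majority rests on neuron sEV replicate 1, without which the gene held 11074 of 36501 IEJ reads (30.3%). The gene label has no entry in the RefSeq table used here, so its biotype is not given. All 348 are UTR_UTR. Many carry a further splice label: Alt3 in 37.6% and novel_exon in 30.7%, against 2.10% and 2.69% of the 2863 IEJ isoforms of other genes, of which 89.2% have no further label.

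Gm42047 had 6, 6 and 0 IEJ reads in the 3 astrocyte cell libraries and 1510, 2140 and 3316 in astrocyte sEVs. Neuron cells had 67, 0 and 0, and neuron sEVs had 51546, 1722 and 1995. Microglia cells had 2, 0 and 7, and microglia sEVs had 0, 303 and 0. Astrocyte and neuron sEVs thus lay above every cell library, while microglia sEVs overlapped with microglia cells.

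The share of the gene's reads that lay on IEJ isoforms differed widely between replicates. In astrocyte sEVs it was 3.63%, 33.8% and 64.3%, of 41564, 6328 and 5160 gene reads. In the first of these libraries a single isoform without the mark held 34329 reads. In neuron sEVs the share was 86.3%, 20.2% and 54.8%, of 59712, 8536 and 3640 gene reads. One IEJ isoform with 48437 reads in neuron sEV replicate 1 made up 54.0% of all IEJ reads of the series, and without it that library's IEJ share would be 7596 RPM in place of 79572 RPM.

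Of the 348 isoforms, 98 were found in at least 2 libraries, and 94 of these 98 in sEV libraries only. Reads in any cell library were found for 6 of the 348. The gene itself was scarce there, with 105, 107 and 39 reads in astrocyte cells, 7, 5 and 7 in microglia cells and 80, 58 and 107 in neuron cells. Where cells had reads the IEJ share was not always low, at 67 of 80 (83.75%) in neuron cell replicate 1. The most recurrent, isoform 28333, was in 8 libraries, with 79, 99 and 227 reads in astrocyte sEVs, 114, 70 and 80 in neuron sEVs, 4 reads in astrocyte cell replicate 2 and 2 reads in microglia cell replicate 1.

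With every gene counted, the IEJ share of reads was higher in sEVs than in cells when averaged over the 3 cell types. Astrocyte cells stood at 1805, 2950 and 2311 RPM and astrocyte sEVs at 4738, 8124 and 10107 RPM, without overlap. Microglia cells stood at 2814, 2217 and 2391 RPM and microglia sEVs at 2343, 3417 and 3049 RPM, which overlap. Neuron cells stood at 2062, 2023 and 2110 RPM and neuron sEVs at 79572, 6238 and 6177 RPM, without overlap.

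The difference, sEVs minus cells, was 5301 RPM in astrocytes (p = 0.1), 462 RPM in microglia (p = 0.3) and 28597 RPM in neurons (p = 0.1), by 2-sided exact permutation tests whose smallest possible p with 3 against 3 libraries is 0.1. Averaged over the cell types it was 11454 RPM (exact permutation within cell type, p = 0.00075, adjusted over the 8 share comparisons p = 0.003). Without neuron sEV replicate 1 the mean difference was 3302 RPM. Leaving out any 1 of the 3 neuron cell libraries left a difference of 11446 to 11461 RPM but gave a permutation p of 0.343 to 0.344.

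**Figure D1:**
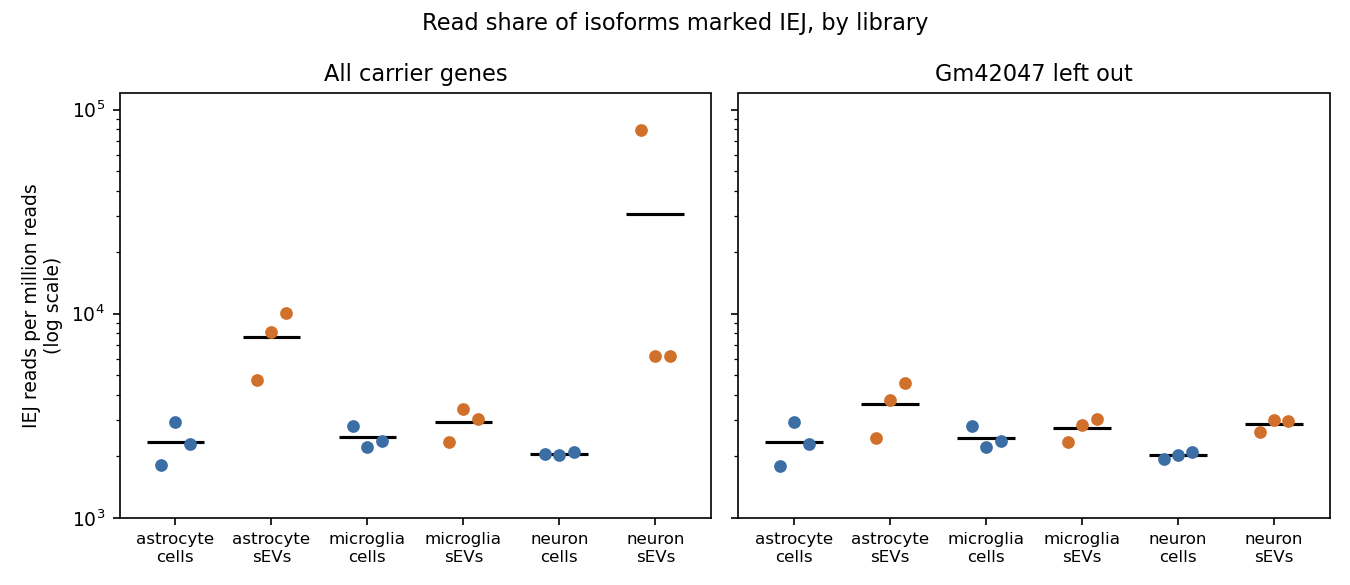
Reads on IEJ isoforms in each library (RPM, log axis), with all genes (left) and with Gm42047 left out (right). Each point is a library, blue for cells and orange for sEVs, and the line is the mean of 3; neuron sEV replicate 1 stands at 79572 RPM on the left and 2624 RPM on the right.

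With Gm42047 left out, the difference remained but was far smaller. Astrocyte cells had 2349 ± 573 RPM (SD, n = 3) and astrocyte sEVs 3601 ± 1071 RPM, microglia cells 2469 ± 306 and microglia sEVs 2746 ± 364 RPM, and neuron cells 2024 ± 86.2 and neuron sEVs 2866 ± 209 RPM. Only in neurons did the groups not overlap, at 1938 to 2111 RPM in cells and 2624 to 2999 RPM in sEVs. The mean difference was 790 RPM (exact permutation within cell type, p = 0.00575, adjusted p = 0.023), and by cell type it was 1252 (p = 0.2), 277 (p = 0.4) and 841 RPM (p = 0.1, all exact permutation).

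Reads of other novel_not_in_catalog isoforms were higher in sEVs as well. Without Gm42047 they made up 23166 ± 288 RPM in astrocyte cells and 33151 ± 2614 in astrocyte sEVs, 21023 ± 2926 and 35783 ± 6488 in microglia, and 27254 ± 2796 and 32130 ± 4409 in neurons (SD, n = 3). Their mean difference was 9874 RPM (exact permutation, p = 0.0005, adjusted over 6 comparisons added after the data were seen p = 0.0015). The IEJ share of all novel_not_in_catalog reads differed by −0.525 percentage points between sEVs and cells (exact permutation, p = 0.594, adjusted p = 0.64), and its sign turned with isoforms of 5 or more reads (0.21 points).

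Among the reads of carrier genes only, IEJ isoforms took a larger share in sEVs in all 3 cell types. This share also moves with the other reads of the carrier genes, whose part was not tested. As RPM without Gm42047, the fractions overlapped in astrocytes and microglia. With Gm42047 left out the share was 0.587% ± 0.151 in astrocyte cells and 1.37% ± 0.401 in astrocyte sEVs, 0.561% ± 0.0689 and 0.779% ± 0.0655 in microglia, and 0.576% ± 0.0354 and 1.12% ± 0.108 in neurons (SD, n = 3). Cell and sEV libraries did not overlap in any of the 3 types, and the mean difference of 0.513 points had the smallest p that the exact permutation test allows (p = 0.00025, adjusted p = 0.002). With Gm42047 it was 3.82 points (exact permutation, p = 0.00025), or 1.41 points without neuron sEV replicate 1, and p was 0.195 to 0.196 when any 1 neuron cell library was left out.

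Counted as isoforms and not as reads, the direction depended on Gm42047. IEJ isoforms were 1.52% ± 0.0389 of the isoforms detected in astrocyte cells and 1.92% ± 0.157 in astrocyte sEVs, 1.29% ± 0.141 and 1.04% ± 0.226 in microglia, and 1.24% ± 0.0891 and 1.69% ± 0.406 in neurons (SD, n = 3). The mean difference was 0.200 points (exact permutation, p = 0.137). Without Gm42047 it was −0.186 points (exact permutation, p = 0.0123, adjusted p = 0.0327). The mean shares in cells and sEVs were then 1.51% and 1.35% in astrocytes, 1.28% and 1.03% in microglia, and 1.24% and 1.10% in neurons. The fractions overlapped in microglia and neurons. There were 300 IEJ isoforms per astrocyte cell library and 190 per sEV library, 172 and 117 in microglia, and 265 and 176 in neurons. All detected isoforms were fewer too, at 19521 to 19967 per library in astrocyte cells and 11551 to 17013 in astrocyte sEVs. In neurons they were 20639 to 21850 and 14612 to 16721, and in microglia they overlapped, at 11541 to 15234 and 8437 to 13075.

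Between cell types the IEJ read share gave no p under the threshold with all isoforms and libraries counted. Group means of cells spanned 409 RPM (exact permutation over 3 groups, p = 0.404) and those of sEVs 27726 RPM (p = 0.114). Without Gm42047 the spans were 445 RPM (p = 0.364) and 855 RPM (exact permutation, p = 0.314). Under 2 alternatives the span did pass: 1145 RPM among cells over isoforms in at least 2 libraries (exact permutation, p = 0.0143), and 6179 RPM among sEVs without replicate 1 of the astrocyte and neuron sEVs (exact permutation, p = 0.0286).

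The UTR_UTR label was more frequent among the IEJ isoforms of sEVs than of cells. With Gm42047 left out, UTR_UTR isoforms were 48.5%, 49.3% and 47.1% of the IEJ isoforms detected in the astrocyte cell libraries and 54.5%, 58.0% and 59.8% in astrocyte sEVs. In microglia they were 35.04%, 30.8% and 33.6% in cells and 38.8%, 39.8% and 42.0% in sEVs. In neurons they were 44.1%, 46.5% and 46.2% in cells and 61.8%, 55.8% and 62.8% in sEVs.

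Every sEV library thus lay above every cell library of its own type, and microglia lay below the other 2 types in both fractions. The mean difference was 10.2 points (exact permutation within cell type, p = 0.00025, the smallest it can give; adjusted over the 6 added comparisons p = 0.0015). It ranged from 9.78 to 10.9 points when each library was left out in turn. Over isoforms found in at least 2 libraries it was 3.84 points (exact permutation, p = 0.107).

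**Figure D2:**
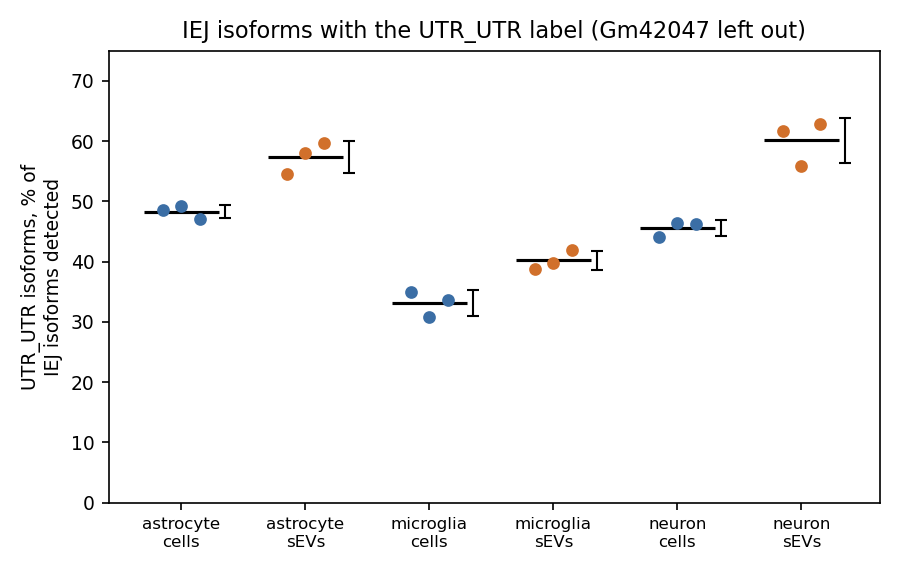
Percent of the detected IEJ isoforms of each library that carry the UTR_UTR label, Gm42047 left out. Points are libraries, blue for cells and orange for sEVs, the line is the mean of 3 and the bar 1 SD; all sEV libraries lie above the cell libraries of their type, by 10.2 points on average.

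In reads, UTR_UTR isoforms of genes other than Gm42047 had 1236 ± 603 RPM in astrocyte cells and 2525 ± 1025 in astrocyte sEVs, 1397 ± 156 and 1774 ± 342 in microglia, and 1024 ± 145 and 1954 ± 268 in neurons (SD, n = 3). Their mean difference was 865 RPM (exact permutation, p = 0.004, adjusted p = 0.008), and 245 RPM over isoforms in at least 2 libraries (exact permutation, p = 0.308). CDS_CDS isoforms differed by 24.6 RPM (exact permutation, p = 0.64), a direction that turned to −4.45 RPM with mitochondrially encoded genes out of the total. CDS_UTR isoforms differed by −107 RPM (exact permutation, p = 0.196).

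The carriers were mostly ordinary protein-coding genes with a single IEJ isoform each. Of the 1892 labels, 1834 matched a RefSeq symbol and 1 a synonym, and 1738 of these are protein-coding and 68 long non-coding RNA genes. A single IEJ isoform was found for 1388 labels (73.4%), 2 for 311, and 3 or more for 193. The share of labels with an IEJ isoform was higher for genes with more reads, at 2.90% of labels with 2 to 9 reads and 55.8% of those with 10000 or more. The IEJ share of reads was lower for them, at 2.31% and 0.0686% in the same bins. These bins do not count the IEJ isoforms of Gm42047, which alone hold 62620 IEJ reads. The fall thus describes the other 1891 carriers only.

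Among gene lists set up for this series, 4 of 8 oligodendrocyte lineage markers, 8 of 18 cytoskeleton genes, 8 of 19 translation factors, 4 of 10 astrocyte markers, 7 of 20 amyloid and neurodegeneration genes and 6 of 19 genes with coding repeats carry an IEJ isoform, against 10.7% of all labels. Lower than in these lists, but still above 10.7%, were neuron markers (3 of 10), heat shock and ER chaperones (4 of 14) and secreted and matrix genes (4 of 14). The same held for cytokines and chemokines (3 of 14), mitochondrially encoded genes (3 of 16), microglia markers (2 of 11) and spliceosome genes (4 of 23). Of 87 cytosolic ribosomal proteins, 6 do (6.90%). Fibroblast and vessel markers (7 in the table) and blood cell markers (2) have 0. The amyloid list's carriers are App, Aplp2, Apoe, Mapt, Psen2, Sorl1 and Trem2, with 20 IEJ isoforms that hold 72 of the list's 167932 reads (0.0429%). The lists differ in read depth, which moves with the share of carriers as above, and its part was not tested.

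Maged2, a member of the MAGE family, has 16 IEJ isoforms, all CDS_CDS, with 332 of its 1268 reads (26.2%). They took 31.0% ± 6.75 of its reads in astrocyte cells, 38.6% ± 4.67 in microglia cells and 17.1% ± 17.8 in neuron cells (SD, n = 3). In sEVs, where the gene had fewer reads, they took 29 of 110 in astrocytes, 0 of 67 in microglia and 20 of 54 in neurons. Gfap, the intermediate filament of astrocytes, has 19 IEJ isoforms, but these hold 146 of its 53538 reads (0.273%), with 16, 23 and 6 in astrocyte cells and 64, 11 and 19 in astrocyte sEVs.

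The gene label ENSMUSG00000095041 has 26 IEJ isoforms with 123 of 311 reads (39.5%). Tank, an adaptor in signalling from immune receptors, has 15, all CDS_CDS, with 107 of 1453 reads, of which 9, 25 and 38 were in microglia sEVs. Fads2, a fatty acid desaturase, has 14 with 72 of 3864 reads, and Tapbp, which loads peptides onto MHC class I, has 10 with 54 of 2423 reads. The predicted gene 5031425E22Rik has 9, with 60 of 27214 reads. Its IEJ reads were 28 of 8434 in astrocyte sEVs and 32 of 18694 in neuron sEVs, and 0 in every cell library, where the gene had 42 reads in astrocytes, 2 in microglia and 25 in neurons. Actg1, cytoplasmic gamma-actin, has 9, with 326 of 8765 reads in 13 libraries. Its IEJ reads were uneven over replicates, with 2, 78 and 2 in neuron cells and 2, 4 and 64 in astrocyte cells.

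Few IEJ isoforms recurred. Without Gm42047, 2525 of 2863 (88.2%) were found in 1 library only, against 82.5% of 23295 other novel_not_in_catalog isoforms. Found in at least 2 libraries were 338, and in 9 or more, 9. Isoforms found in 1 library held 51.6% of the IEJ reads and 37.8% of the reads of the other class. In each library, 20.1% to 46.3% of its IEJ isoforms (median 30.6%) were seen in some other library, against 35.4% to 55.6% (median 40.3%) of its other novel_not_in_catalog isoforms. In this count the IEJ value was the lower in 17 of 18 libraries, with a mean difference of −8.71 points and microglia sEV replicate 1 the exception. With isoforms of 5 or more reads it was lower in 14 of 18, with a mean difference of −4.96 points. The libraries share isoforms by construction, so no test is given.

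**Figure D3:**
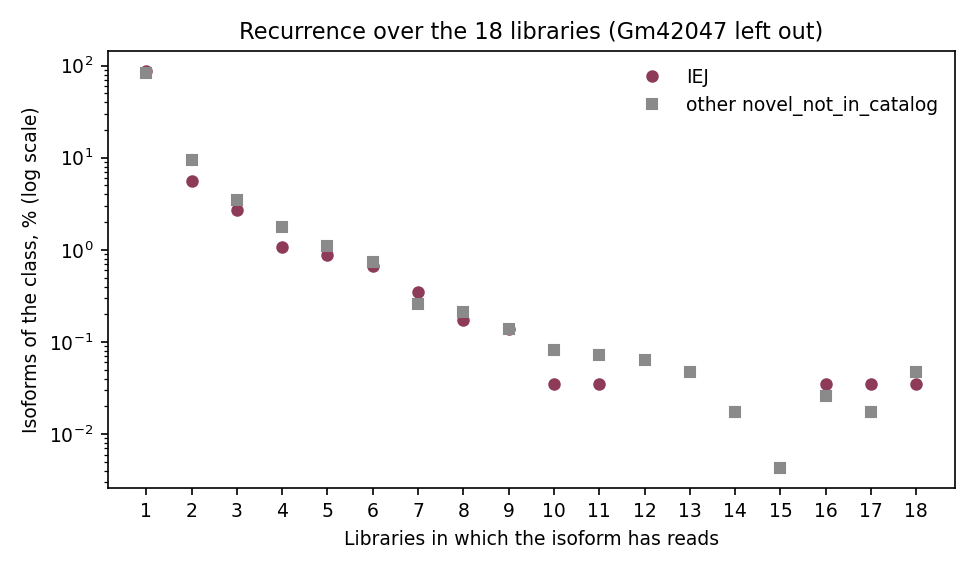
Percent of isoforms, on a log axis, found in a given number of the 18 libraries, for IEJ isoforms (circles) and other novel_not_in_catalog isoforms (squares), Gm42047 left out. Numbers of libraries that hold 0 isoforms are not drawn; 88.2% of IEJ isoforms and 82.5% of the others were found in 1 library.

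Within a group, 4.23% of the 780 IEJ isoforms detected in astrocyte cells were in all 3 libraries, 6.59% of 425 in microglia cells and 2.05% of 731 in neuron cells. In sEVs it was 1.54% of 518, 3.87% of 310 and 1.01% of 497. Other novel_not_in_catalog isoforms were in all 3 libraries to 4.31%, 7.15% and 3.71% in the cells of the same types and 1.93%, 3.99% and 3.19% in sEVs. The IEJ values of astrocytes and microglia lay near these, and those of neurons below them. Between the fractions, 74 isoforms were shared in astrocytes (9.49% of those in cells, 14.3% of those in sEVs), 64 in microglia (15.1% and 20.6%) and 36 in neurons (4.92% and 7.24%). For other novel_not_in_catalog isoforms these shares were 12.6% and 14.8% in astrocytes, 21.2% and 20.9% in microglia and 11.3% and 14.9% in neurons, so the sEV-side shares of astrocytes and microglia lay near those of the other class. Of the 338 recurrent isoforms, 148 were found in 1 cell type only (54 astrocyte, 66 microglia, 28 neuron), 112 only in cells, 52 only in sEVs and 174 in both. In percent, 43.8% were in 1 cell type only, 33.1% only in cells and 15.4% only in sEVs, against 50.4%, 27.4% and 16.4% of 4085 recurrent isoforms of the other class.

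The isoform found in all 18 libraries belongs to Cops8, a subunit of the COP9 signalosome, which trims the ubiquitin-like protein NEDD8 from cullin ligases. It is CDS_CDS and holds 604 of the gene's 2014 reads (29.99%). It had 20, 30 and 19 reads in astrocyte cells, 24, 17 and 67 in astrocyte sEVs, 22, 19 and 20 in microglia cells, 40, 39 and 16 in microglia sEVs, 12, 26 and 16 in neuron cells and 83, 55 and 79 in neuron sEVs. Neuron sEVs lay above neuron cells without overlap, while the other 2 types overlapped.

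As a share of the gene, the Cops8 IEJ reads were 25.5% ± 4.71 in neuron cells and 37.8% ± 10.5 in neuron sEVs (SD, n = 3), which overlap. The gene itself had 52, 84 and 71 reads in neuron cells and 173, 203 and 206 in neuron sEVs.

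Dazap2, which encodes a small proline-rich protein, has an isoform of the same class in 17 libraries, with 556 reads, 4.42% of the gene's. It had 17, 34 and 17 reads in astrocyte cells, 105, 48 and 48 in astrocyte sEVs, 10, 23 and 27 in microglia cells and 44, 50 and 95 in microglia sEVs, with no overlap between fractions in either type. Neither difference passed the test in edgeR (adjusted p = 0.247 and 0.571, quasi-likelihood test), but the astrocyte difference did in a fit of only those 2 groups (edgeR adjusted p = 0.0425). Neuron libraries held 0 to 21.

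For Rtl8c, a gene derived from a retrotransposon Gag sequence, the IEJ isoform is nearly the whole gene: 551 of 584 reads (94.3%), in 16 libraries, labelled UTR_UTR. It had 82, 105 and 101 reads in neuron cells and 40, 18 and 16 in neuron sEVs, 30, 37 and 39 in astrocyte cells and 21, 14 and 18 in astrocyte sEVs, and 0 to 18 in microglia libraries. Cells lay above sEVs in neurons and astrocytes without overlap, which did not pass the test (edgeR adjusted p = 0.0879 and 0.482). In a fit of only the neuron groups it passed, lower in sEVs (edgeR adjusted p = 0.0135).

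Of the 10 isoforms found in the most libraries, 6 others outside Gm42047 were found in 9 to 11. That of Gpr17, a receptor of oligodendrocyte precursors, holds 41.4% of the gene's reads and had 2 to 9 reads in each of the 6 astrocyte and neuron cell libraries and 0 in every microglia library. Oligodendrocyte lineage markers were at 95.8 to 101 RPM in microglia cells, below the other cell groups, and their part was not tested. The isoform of the predicted gene Gm21748 holds 60 reads, 90.9% of its gene's, with 12, 4 and 10 in astrocyte sEVs and 0 in all astrocyte cell and microglia sEV libraries.

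The isoform of Clic4, an intracellular chloride channel protein, had 22, 10 and 33 reads in microglia cells and 7, 43 and 42 in microglia sEVs, 2, 4 and 8 in astrocyte cells and 0 in astrocyte sEVs. That of Ndufb11, a subunit of respiratory complex I, had 119 of its 193 reads in astrocyte sEV replicate 1. That of Tsc22d1, a transcriptional regulator, had 6 to 18 in each astrocyte and neuron cell library, and that of Thrap3, which acts in mRNA processing, had at most 15 in any library.

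**Figure D4:**
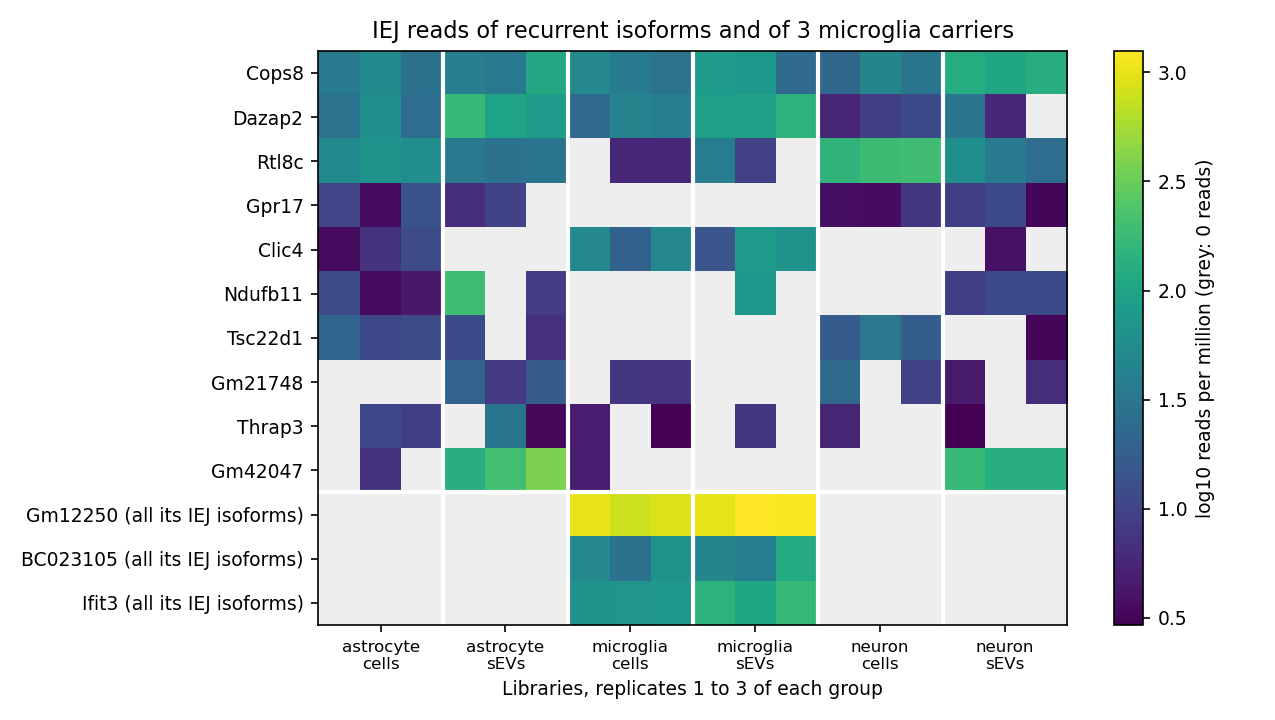
RPM (log10 colour scale, grey for 0 reads) of the 10 most recurrent IEJ isoforms, and of all IEJ isoforms of Gm12250, BC023105 and Ifit3, in the 18 libraries. Cops8 has reads in every library, and the lowest 3 rows only in the 6 microglia libraries.

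Of carriers with at least 50 IEJ reads, 10 had at least 95% of these in microglia libraries, most of them in both cells and sEVs. The 10 genes themselves had 94.8% (Ctsz) to 100% of all their reads there. The restriction to microglia is thus not particular to the IEJ isoforms. The highest, Gm12250 (also known as Irgb10), encodes an immunity-related GTPase that acts against intracellular bacteria. It had 443, 413 and 614 IEJ reads in microglia cells and 477, 663 and 777 in microglia sEVs, and 0 in the other 12 libraries. These are 3387 of the gene's 3403 reads (99.5%), on 5 isoforms that are all UTR_UTR. The 2 fractions overlap, and the gene itself had 2 reads outside microglia.

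BC023105 has 2 IEJ isoforms that hold all of its 202 reads, with 22, 15 and 44 in microglia cells and 22, 20 and 79 in microglia sEVs. Ifit3, an interferon-induced antiviral protein, has 9 IEJ isoforms, 8 of them CDS_CDS, with 28, 36 and 51 reads in microglia cells and 71, 54 and 108 in microglia sEVs. There the sEV libraries lay above the cell libraries, but so did the gene's reads in part (3144 to 5217 in cells, 4404 to 7310 in sEVs). As a share of the gene they were 0.985% ± 0.157 and 1.36% ± 0.323 (SD, n = 3), which overlap. Ifit3 has a near-identical neighbouring copy, and how reads were divided between copies is not given in the sources used here.

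Gvin-ps7, a pseudogene of the large interferon-inducible GTPases, had 38, 22 and 118 IEJ reads in microglia cells and 0, 21 and 12 in microglia sEVs, 54.2% of its 389 reads in all. Ctsz, a lysosomal protease, had 18, 40 and 42 in microglia cells, 28, 10 and 2 in microglia sEVs and 2 in a neuron cell library. Rsad2, the interferon-induced enzyme viperin, had 249 of its 258 IEJ reads in microglia cell replicate 1, where the gene had 548 reads, and 2 and 0 in the other replicates, where it had 712 and 735.

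Rsad2 is one of several large IEJ isoforms held mostly by a single library. Of 59 IEJ isoforms with 50 or more reads outside Gm42047, 27 (45.8%) had at least 90% of their reads in 1 library, against 236 of 701 (33.7%) of the other novel_not_in_catalog isoforms. Gm42047 had 25 more. Of the 27, 21 came from sEV libraries and 6 from cell libraries. In the library that held it, the isoform took a median of 94.8% of the gene's reads, and 50% or more for 22 of the 27.

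For 17 of them the other 2 replicates of the group together held 20 or more reads of the gene. In 12 of these 17 the isoform was the majority of the gene's reads in its library, and in 11 of those 12 it had 0 reads in the other replicates. Timp2, an inhibitor of matrix metalloproteinases, had 240 of 242 reads on its CDS_UTR isoform in astrocyte cell replicate 3 and 0 of 236 in the other 2. Rpl18, of the large ribosomal subunit, had 164 of 180 in astrocyte sEV replicate 3 and 0 of 251. Irs1, the insulin receptor substrate, had 445 of 461 in astrocyte sEV replicate 2 and 0 of 272.

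Pdcd6, a calcium-binding protein, had 99 of 104 in astrocyte cell replicate 2 and 0 of 190, and Rprd1a 144 of 144 in neuron sEV replicate 1 and 0 of 213. Fam168b had 911 of 916 in astrocyte sEV replicate 3 and 3 of 1011 in the other replicates. In these genes the isoform mix of replicates was opposite, with IEJ reads dominant in 1 library and near absent in the others.

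In other genes the isoform was a minority or near an even share of the gene's reads, or the gene was scarce in the other replicates. Atp1b2, a subunit of the sodium pump, had 476 of 3268 reads (14.6%) in astrocyte cell replicate 2 and 0 of 11192 in the other 2. Dnmt3a, a DNA methyltransferase, had 308 of 602 (51.2%) in neuron sEV replicate 3 and 0 of 551. Dcaf7 had 755 of 757 in neuron sEV replicate 2, and D430019H16Rik 347 of 349 in neuron sEV replicate 3, where the other replicates together had 0 and 5 reads of the gene.

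**Figure D5:**
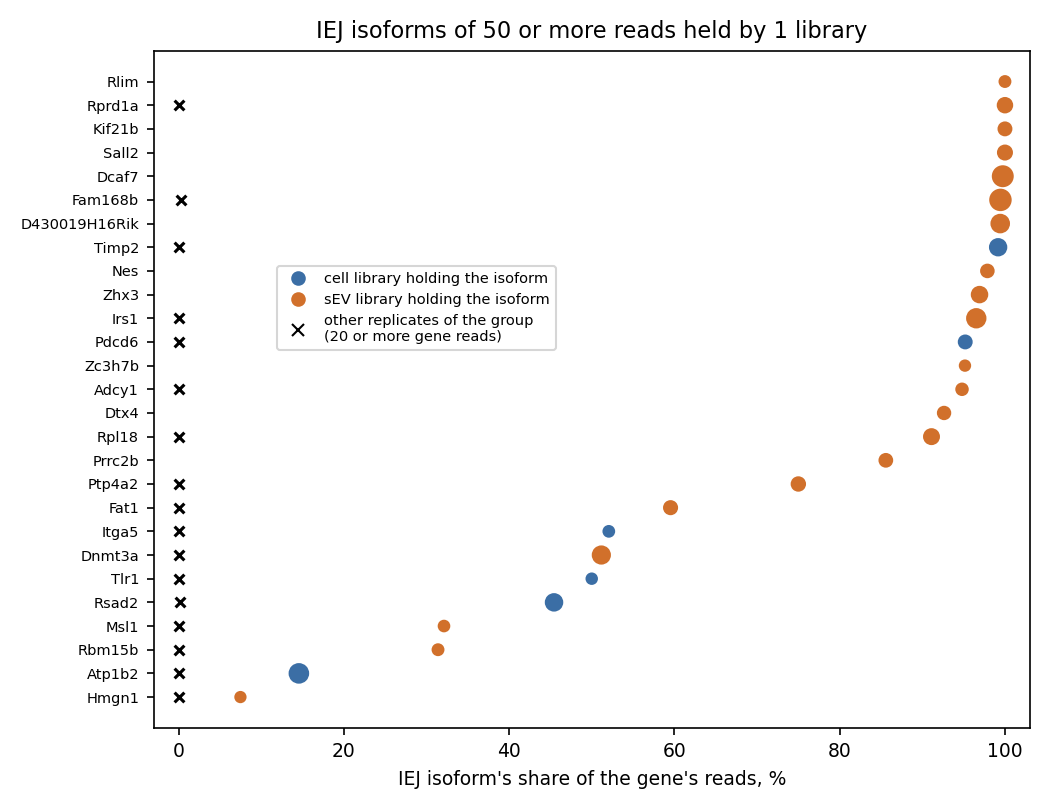
Share of the gene's reads held by each of the 27 IEJ isoforms with 50 or more reads and at least 90% of them in 1 library, Gm42047 left out. Circles give the share in that library (blue for cells, orange for sEVs, area rising with reads) and crosses the share in the other 2 replicates of the group where these held 20 or more gene reads; all crosses lie at or near 0.

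Only 40 IEJ isoforms had enough reads to be tested one by one, 18 of them from Gm42047. In edgeR's quasi-likelihood test over 9370 isoforms, with Benjamini-Hochberg adjustment, 8 of the 40 passed an adjusted p of 0.05 between astrocyte sEVs and cells (20%, against 15.5% of all isoforms tested), 7 higher in sEVs (17.5%, against 3.22%) and 1 lower. In neurons 12 passed (30%, against 27.2%), all higher in sEVs (against 6.26%). In microglia 0 passed (against 9.36%), and 1 had an unadjusted p under 0.05; DESeq2 also called 0. Over the mean of the 3 types 2 passed (5%, against 28%), both higher in sEVs (against 6.92%): the Cops8 isoform (adjusted p = 0.0410), which passed in 5 of 18 fits that left out a library, and isoform 78812 of Gm42047 (adjusted p = 0.0128), which did not pass without microglia sEV replicate 2 (0.9999). For most members with a group at 0 the fit gave this contrast adjusted p-values near 1. This held also where no cell type had both groups at 0, as for Clic4 (0.9999). Such members could hardly be called, so the 5% is no measure of how many differ.

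The 7 in astrocytes and 11 of the 12 in neurons belong to Gm42047 and were at 0 in every neuron cell library and at 0 to 6.44 CPM (counts per 1000000, scaled by TMM) in astrocyte cells. They passed the count filter only through sEV libraries, which fixed their direction, so the counts of higher calls are a description and support nothing. Without Gm42047, 0 of 22 were higher in astrocyte sEVs, and 1 of 22 in neuron sEVs. Over all isoforms tested with Gm42047 kept, 3.22% and 6.26% were higher, so these counts lie near that share. The median log2 difference of the 40, sEVs against cells, was 3.04 in astrocytes and 3.92 in neurons, against −0.09 and −0.57 over all isoforms tested. An isoform at 0 in a group enters the fit with a difference set by the prior count, so these medians are no measure of size.

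Isoform 28333 of Gm42047 stood at 2.15 ± 3.72 CPM (SD, n = 3) in astrocyte cells and 219 ± 110 in astrocyte sEVs (edgeR adjusted p = 0.00442). In neuron sEVs it had 168 ± 27.9 CPM and in neuron cells 0, at least 27.7-fold higher against a floor of 3 reads per library (edgeR adjusted p = 0.00179). Isoform 50607 of Gm42047 was at least 42.9-fold higher in astrocyte sEVs and at least 37.9-fold in neuron sEVs, with 0 in the cells of both types (edgeR adjusted p = 0.00792 and 0.00569). Isoform 78817 of Gm42047 had at least 8.95-fold and 10.1-fold (edgeR adjusted p = 0.00949 and 0.00584). All 3 passed in each of the 18 fits that left out a library. They entered the test only through sEV libraries, so these passes too are a description.

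Outside Gm42047, the Cops8 isoform was the only member to pass with a higher level in sEVs: 35.8 ± 11.9 CPM in neuron cells and 138 ± 14.8 in neuron sEVs (SD, n = 3), a log2 difference of 1.94 ± 0.27 (SE; edgeR adjusted p = 0.0114). It passed in 16 of the 18 fits that left out a library, with adjusted p = 0.0752 without neuron cell replicate 1, and not when every isoform with a read was tested (adjusted p = 0.635). Its difference was a log2 of 0.55 in astrocytes and −0.02 in microglia (edgeR adjusted p = 0.542 and 1). The Clic4 isoform was lower in astrocyte sEVs, 7.85 ± 5.29 CPM in cells and 0 in sEVs, at least 1.56-fold (edgeR adjusted p = 0.0396). That call held in 2 of the 18 fits that left out a library (adjusted p 0.0374 to 0.132).

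Between cell types, 12 of the 40 differed in cells (30%, against 37.1% of all isoforms tested) and 19 in sEVs (47.5%, against 43.1%). With Gm42047 left out it was 12 of 22 in cells (54.5%, against 37.3% of 9381 isoforms) and 11 of 22 in sEVs (50%, against 43.2%). Isoforms at 0 outside a cell type passed the count filter through that type, so these shares are a description. The smallest adjusted p belonged to the main Gm12250 isoform, 38339, at 1478 ± 122 CPM in microglia cells and 1154 ± 262 in microglia sEVs (SD, n = 3) and 0 in the other 12 libraries (edgeR adjusted p = 5.61e-06 among cells and 5.17e-06 among sEVs). An Ifit3 isoform (39898) and one of BC023105 followed, both at 0 outside microglia. Their edgeR adjusted p was 0.00078 and 0.00177 among cells and 0.000643 and 0.00119 among sEVs. The genes Gm12250, Ifit3 and BC023105 had 99.8% to 100% of all their reads in microglia libraries.

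The Clic4 isoform was highest in microglia, at 66.9 ± 29.2 CPM in cells and 61.0 ± 41.1 in sEVs (SD, n = 3). It passed among cells and among sEVs (edgeR adjusted p = 0.00479 and 0.00174). The gene itself had 3934 reads in microglia cells and 2955 in microglia sEVs, against at most 338 in any other group. As a share of the gene, Clic4 IEJ reads were 1.80% ± 0.867 in microglia cells and 6.21% ± 3.18 in astrocyte cells. The Rtl8c isoform was highest in neuron cells, at 194 ± 23.1 CPM, then astrocyte cells, at 59.2 ± 7.85, and microglia cells, at 6.80 ± 5.90 (edgeR adjusted p = 0.00578). Among sEVs it did not pass (edgeR adjusted p = 0.317). The other calls among cells were Ctsz, Gvin-ps7, Vasp, Reep1, Shisa4 and a second isoform each of Gm12250 and Ifit3. Of these, Ctsz and Gm12250 passed in all 18 fits that left out a library and Gvin-ps7 in 15, but Vasp in 9, the second Ifit3 isoform in 7, and Reep1 and Shisa4 in 1 each.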

How the data were processed

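Polyadenylated RNA was made into cDNA, reamplified for 10 cycles and sequenced in 2 pools (cells, sEVs), each on 2 SMRT cells, per the labels' protocols. The authors deposited a table of whole-number read counts per isoform with gene, category, subcategory and IEJ columns; minimap2 and GRCm39 are named in the submitters' processing notes, and no source used here names the isoform caller, the annotation or their settings. Counts of reads amplified without molecular identifiers are not independent molecules. All 18 columns were matched to samples. Replicate libraries differed beyond sampling noise (chi-square per isoform at least 10.9).

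Shares used all reads of a library as the total. Exact permutation tests kept cell type fixed (8000 arrangements). Isoforms were tested with edgeR 4.0.16 (R 4.3.3; filterByExpr, TMM, quasi-likelihood, 1 fit of 18 libraries, no block); DESeq2 1.42.0 was an alternative. SEs of log2 differences come from log2 CPM values. On simulated neuron sEVs against cells (7823 isoforms), the test recovered 50% of 8-fold and 70% of 64-fold changes, with 1.64% false calls. The genes named were the 15 with the most IEJ reads, the 10 with the most IEJ isoforms, the 10 most recurrent isoforms, up to 5 calls per comparison without overlap, and members of the gene lists. Gvin-ps7, BC023105, Ctsz, Vasp, Reep1, Shisa4 and the isoforms held by 1 library were named after their values were seen. The members, lists and rules were chosen with earlier results of these data known.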

Additional observations from a re-analysis of the deposited data

Results flagged for a closer look

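The IEJ share of novel_not_in_catalog reads, Gm42047 left out, moved in opposite directions in 2 cell types. In microglia it was 13.1%, 9.87% and 8.94% in cells and 7.64%, 6.79% and 7.09% in sEVs. In neurons it was 7.45%, 6.44% and 6.94% in cells and 7.93%, 7.47% and 9.36% in sEVs. All microglia sEV libraries lay below the microglia cell libraries, and all neuron sEV libraries lay above the neuron cell libraries. The difference between the 2 contrasts was 4.79 percentage points (exact permutation within cell type, p = 0.005, adjusted over 18 such comparisons p = 0.09), which does not pass the correction.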

How the results depend on the processing

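Whether same-numbered cell and sEV libraries are paired is not known. Their deviations correlated at −0.039 to 0.060, against −0.049 to 0.036 for different numbers, which cannot settle it. With the replicate block, the sign-flip test of the mean read share difference (11454 RPM) gave an exact p of 0.0078 and that of the share within carriers (3.82 points) 0.0039, and neither call changed. In edgeR the block gave 3 calls in astrocytes, 6 in neurons, 1 for the mean of cell types and 12 among sEVs. These are of 40 IEJ isoforms tested, and over all 9370 isoforms the calls were 1073, 1963, 2462 and 3216.

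Without a filter on low counts the calls were 22 in astrocytes, 2 in microglia, 27 in neurons, 19 among cells and 66 among sEVs. These are of 3211 IEJ isoforms tested, and over all 114425 isoforms the calls were 1078, 632, 1617, 2966 and 4025. Without Gm42047 the calls were, of 22 IEJ isoforms tested, 1 in astrocytes, 1 in neurons, 1 for the mean and 11 among sEVs. Over all 9381 isoforms they were 1431, 2490, 2585 and 4050. Fits of only the groups compared gave 5 of 9 in astrocytes (1364 of 5441 over all isoforms) and 7 of 8 in neurons (2613 of 5387). Of the 7, 2 were lower in sEVs. For the mean these are all 18 libraries, so there is no such fit. DESeq2 gave 11 of 38 for the mean (3369 of 9244 over all) and 11 of 38 among sEVs (4249 of 9243). Leaving out each library gave 3 to 8 calls in astrocytes, 3 to 12 in neurons and 0 to 3 for the mean (0 without microglia sEV replicate 2). It gave 7 to 14 among cells and 10 to 17 among sEVs. These fits tested 60 to 68 IEJ isoforms, of 11953 to 12459 in all. Over all isoforms the calls, in the same order, were 715 to 1407, 1430 to 2530, 2159 to 2688, 2289 to 3612 and 3333 to 3935.

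With both sEV libraries richest in Gm42047 left out (chosen after seeing the data), astrocytes had 3 calls of 50, against 941 of 11432 over all isoforms. The share then spanned 6179 RPM among sEVs of the cell types (exact permutation p = 0.0286). Over isoforms in at least 2 libraries the share spanned 1145 RPM among cells (exact permutation p = 0.0143). The share of detected isoforms differed by −0.186 points without Gm42047, 0.447 with isoforms of 5 or more reads (p = 0.00075) and 0.210 with isoforms in at least 2 libraries (p = 0.0253, both exact permutation). The IEJ share of novel_not_in_catalog reads turned to 0.209 points with isoforms of 5 or more reads, and the CDS_CDS share to −4.45 RPM with mitochondrially encoded genes out of the total.

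Leaving out each library, the mean read share difference ran from 3302 to 15534 RPM, the share within carriers from 1.41 to 5.03 points and the CDS_CDS share from −0.114 to 56.3 RPM. The causes of these differences were not tested. A 0 can hide a single read, and 48.1% of the IEJ isoforms rest on 2 reads, so absence from a library was not detectable as such at this depth.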
